A study of Mus musculus with 2 samples.

Results

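The genes described here encode the voltage-gated and related cation channels of excitable cells. They are the potassium channel genes (Kcn), the sodium channel genes (Scn), the voltage-gated calcium channel genes (Cacn), the hyperpolarisation-activated channel genes (Hcn) and the acid-sensing channel genes (Asic, named Accn in the array design). They were taken by gene name from the non-control probes of an Agilent mouse expression array, leaving out the noncoding RNA Kcnq1ot1. This gave 143 genes on 205 probes, of 36391 gene names on 55674 probes. Where a gene had several probes, the probe with the highest mean level of both arrays was used.

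The arrays compared neural stem and progenitor cells (NSPCs) derived by way of embryoid bodies from mouse embryonic stem cells and kept in suspension as tertiary neurospheres. Both cultures were at passage 2 on day 18 of culture, per the labels. RNA of an overexpression control was hybridised to one array and RNA of NSPCs that overexpressed miR-153, a microRNA, to the other, so each group had 1 array. The labels name neither the vector nor its promoter, and they do not say how many cultures were combined. With 1 array in each of the 2 groups no difference has a replicate check and no test was possible. Genes at least 2-fold apart are described as higher or lower in miR-153 cells, a fixed rule of size.

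Voltage-gated channels open when the membrane potential changes and let one kind of cation through a pore. Sodium channels carry the upstroke of the action potential, potassium channels end it and set the resting potential, and calcium channels couple electrical activity to transmitter release and gene expression. Auxiliary subunits bind the pore proteins and set how many reach the membrane and how fast they open and close. Progenitors in the developing nervous system are held at a negative potential mainly by potassium channels, and neurons and oligodendrocyte precursors gain voltage-gated channels as they differentiate.

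Signals are Agilent processed intensities. Levels are log2 of that signal after division by the 75th percentile of the array over non-control spots, which was 435 intensity units for the control and 549 for miR-153. A level of 0 therefore equals that percentile, and levels of different probes are not set against each other. Differences are always the level in miR-153 cells minus the level in the control, on the log2 scale. A gene is called detected when its probe was well above background, the scanner software's own flag. That flag was set for 52.5% of non-control spots in the control and 55.6% in miR-153 cells, and no channel gene spot was saturated. Repeat spots of a probe had a median SD of 0.073 for the difference, over 257 probes. Different probes of a gene had an SD of 0.47 over 5024 genes. Spike-in scaling added 0.24 to every difference and moved the median of all genes from -0.11 to 0.14.

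All 10 markers of neural progenitors were detected on both arrays, among them Nes, Sox2, Fabp7 and Vim, and 3 of them were higher in miR-153 cells. Markers of neurons were also detected on both arrays, 10 of 10, and 6 of them were higher and 1, Nefl, lower. Over all genes detected on both arrays, 9.22% were higher and 11.1% lower. The summed signal of the neuron list was 25558 intensity units in the control and 81577 in miR-153 cells. Summed signals here and below are not divided by the 75th percentile of the array, which was 435 for the control and 549 for miR-153. Of 10 oligodendrocyte lineage markers, all detected on both arrays, 5 were higher and 1 lower, with a summed signal of 38714 and 69192. Of 8 neural crest and Schwann cell markers, which share genes such as Sox10 with the oligodendrocyte list, 4 were detected on both arrays. All 4 were higher, and the summed signal of the list was 3153 and 27881. Of 10 markers of skeletal and heart muscle, 6 were undetected on both, among them Myod1, Myog, Des and Ttn. Myh7, at levels of 2.23 and 1.28, and the dimmer Actc1 were detected on both arrays. Myh6 was detected in the control only and Acta1 in miR-153 cells only. Of 6 markers of pluripotent cells, 4 were detected on both arrays, and 3 of these (Dppa5a, Esrrb and Klf4) were lower in miR-153 cells, with a median of -1.52 over the 4. Their list's summed signal was 3127 intensity units in the control and 1707 in miR-153 cells. The part that shifts in cell makeup had in the differences below was not tested. In such bulk samples, fewer cells of a type and less RNA per cell cannot be told apart.

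The microRNA that was overexpressed has the following mature arms in RefSeq, on chromosome 12 of GRCm38.p6 at chr12:117250860-117250881 for the 3p arm and chr12:117250821-117250843 for the 5p arm, both on the plus strand. Capitals mark the seed, bases 2 to 8, which pairs with target RNAs.
mmu-miR-153-3p: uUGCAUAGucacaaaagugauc
mmu-miR-153-5p: gUCAUUUUugugacguugcagcu
The labels do not say which arm was expressed. The probes of the array are 60 bases long and are read as the sense strand of the transcript, so a match to the 3p seed can be searched in them. The 8 letters CTATGCAA, on the sense strand only, are the complement of bases 1 to 8 of the 3p arm. They occurred in 56 of 55681 probes (0.101%) and in 1 of the 205 channel gene probes, that of Kcna1. Kcna1 encodes a low-threshold potassium channel of axons. The stretch of its probe around the match lies at chr6:126586550-126586579 of mm9 on the minus strand, with the match in capitals.
Kcna1: atagttttcatCTATGCAAttttacttggt
Kcna1 gave a signal of 30.6 intensity units in the control and 32.9 in miR-153 cells, close to background, and its levels were -3.83 and -4.06. The difference was -0.23, inside the spread between probes of a gene. A letter match in a probe is a description of the probe and not a binding site, and transcripts outside the probes were not searched.

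Channel genes were detected at about the rate of all genes, and more of them were higher than lower in miR-153 cells. In the control 87 of 143 (60.8%) were detected, beside 58.1% of all genes, and in miR-153 cells 94 (65.7%), beside 61.4%. Both arrays detected 80 of them (55.9%, all genes 56.2%). Another 14 were detected in miR-153 cells only (5.29% of all genes), 7 in the control only (1.97% of all genes) and 42 in neither. Where a single array detected a gene, a lower bound on the difference was set. It used the weakest level of any detected probe on the other array, or the gene's own level there where that was higher. Some undetected probes lay above that weakest level, so each bound, given as "at least", holds under this rule and is not a strict limit. Of the 14, 4 had a bound of at least 2-fold (19.1% of all genes so detected), and of the 7, 5 had (73.8% of all genes so detected). Of the 80, 23 (28.8%) were at least 2-fold higher, where 9.22% of 20435 genes were, and 7 (8.75%) at least 2-fold lower, where 11.1% of all genes were. Their median difference was 0.39, and 55 of 80 (68.8%) lay above 0, beside 43.9% of all genes. The excess was present among bright and dim genes. Among channel genes at or above the median level of all genes, 8 of 25 were higher (32.0%, all genes 7.05%), and below it 15 of 55 (27.3%, all genes 11.4%). Under spike-in scaling 25 channel genes were higher and 3 lower, so that higher genes made up 89.3% of those past 2-fold, where they were 76.7% in the main setting. The same share over all genes was 64.9% under spike-in scaling and 45.5% in the main setting.

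**Figure D1:**
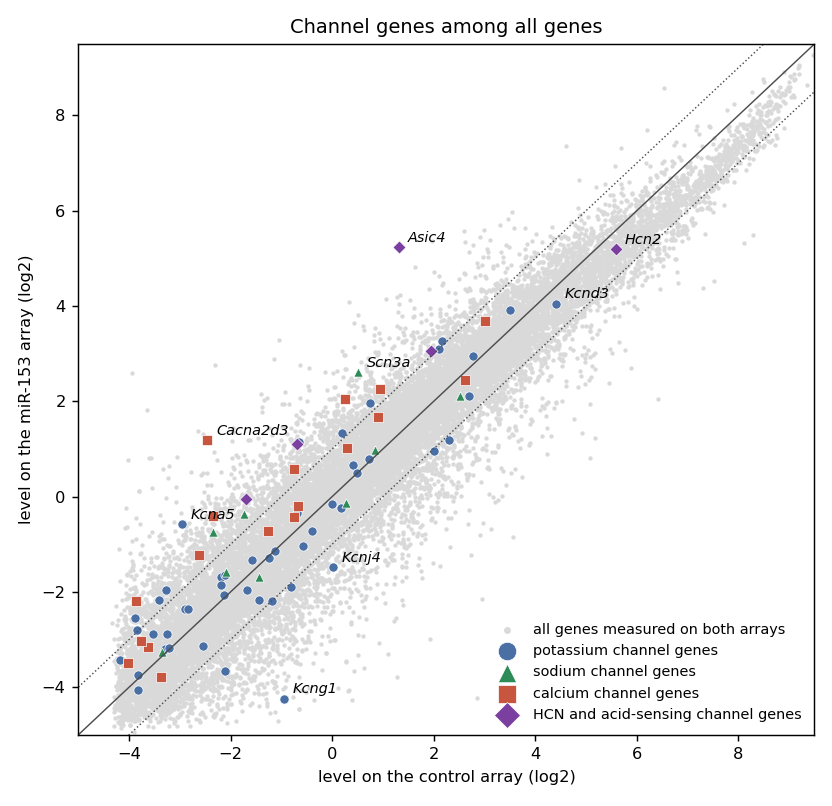
Level of each gene on the control array (x axis) against the miR-153 array (y axis), both log2 relative to the 75th percentile of the array, 1 array each. Grey points are all 20435 genes detected on both arrays and coloured points the 80 channel genes among them. The solid line marks equal levels and the dotted lines 2-fold, and Asic4 and Cacna2d3 lie far above the upper dotted line while Kcng1 lies far below the lower.

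The counts of higher and lower genes are given by ion, a difference that 1 array per group cannot test. Of the 32 sodium, calcium, hyperpolarisation-activated and acid-sensing genes detected on both arrays, 14 (43.8%) were higher and 0 lower, with a median difference of 0.73. Of the 48 potassium channel genes, 9 (18.8%) were higher and 7 (14.6%) lower, with a median of 0.10. Over all genes 9.22% were higher and 11.1% lower, so the share of lower potassium channel genes was near that of all genes. All 7 lower genes were potassium channel genes, a count that leaves out genes detected on a single array. Of these 7, 2 (Kcng1 and Kcnj4) stayed past 2-fold in every alternative processing that keeps every gene. Genes of pore-forming subunits had 16 of 57 higher and 6 lower, with a median of 0.09. Genes of auxiliary subunits had 7 of 23 higher and 1 lower, with a median of 0.54, and 21 of the 23 lay above 0.

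**Figure D2:**
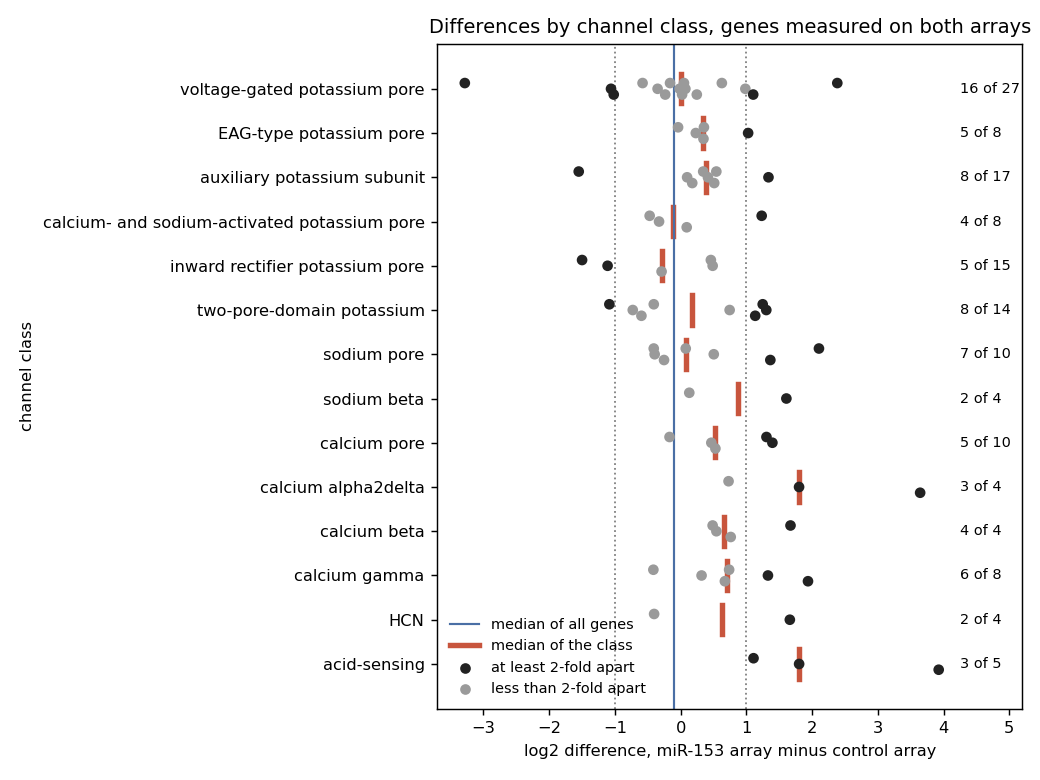
Log2 difference (miR-153 minus control, x axis) of 78 channel genes detected on both arrays, by channel class (y axis, 14 classes). Points are genes, dark where at least 2-fold apart, red bars are class medians, the blue line is the median of all genes (-0.11), dotted lines mark 2-fold, and the right margin counts genes plotted of genes in the class. The 3 plotted acid-sensing genes and all plotted calcium alpha2delta and beta genes lie above 0, and dark points left of -1 occur only in potassium classes.

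Acid-sensing channels are sodium-permeable channels opened by extracellular protons. All 3 members detected on both arrays were higher in miR-153 cells. Asic4, whose product forms no proton-gated channel by itself, had signals of 1077 and 20665 intensity units and levels of 1.31 and 5.23, a difference of 3.93 (15.2-fold higher). Its probe lies on chromosome 1 of mm9 at 75470848 to 75470907. Asic2, on chromosome 11 at 80693797 to 80693856, had levels of -0.70 and 1.11 (1.80, 3.49-fold). Asic1, the main proton sensor of brain neurons, stood at 1.95 and 3.06 (1.11, 2.16-fold). The remaining genes were too dim to compare. Asic3, a channel of sensory neurons, was detected in the control only and was at least 1.60-fold higher there, and Asic5 was detected in miR-153 cells only and had no bound above 1.

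Of 26 calcium channel genes, 18 were detected on both arrays. Of these, 7 were higher, 0 lower and 11 between, and 16 of the 18 lay above 0. The alpha2delta genes encode extracellular subunits that carry the pore protein to the membrane. Cacna2d3, on chromosome 14 at 29718399 to 29718458 of mm9, gave a signal of 79.1 intensity units in the control and 1249 in miR-153 cells. Its levels were -2.46 and 1.18, a difference of 3.64 (12.5-fold), or 2.71 with normexp, an alternative background correction whose offset draws dim signals together. Cacna2d2 stood at 0.25 and 2.05 (1.80, 3.49-fold), and a second probe of it was detected in miR-153 cells only. Cacna2d1, a receptor of gabapentin, stood at 0.29 and 1.02, and both of its probes gave 0.73. Cacna2d4, known from the retina, was not detected.

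The cytoplasmic beta subunits also all lay above 0. Cacnb4 stood at -3.86 and -2.18 (1.67, 3.19-fold), a dim gene that normexp put at 0.65, short of 2-fold. Cacnb3 stood at 0.91 and 1.67 (0.76), Cacnb1 at -1.26 and -0.71 (0.54) and Cacnb2 at -3.64 and -3.15 (0.49). The difference of Cacnb3 reached 1.01 under spike-in scaling.

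Of the gamma subunits, several carry AMPA receptors to synapses and are known as TARPs. Cacng2, the stargazin gene, gave signals of 85.5 and 414 intensity units and levels of -2.35 and -0.41 (1.94, 3.83-fold, or 1.34 with normexp). A second probe of Cacng2 was not detected on either array, with signals of 4.79 and 4.35, so this difference rests on 1 probe. Cacng4, a TARP gene of developing brain, stood at -0.76 and 0.57 (1.33, 2.51-fold). Cacng7 (0.67), Cacng5 (0.74) and Cacng6 (0.32) lay above 0 without reaching 2-fold, and Cacng8, a TARP gene of the hippocampus, lay below at -0.41. Cacng1, of skeletal muscle, and Cacng3 were not detected.

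Among the pore genes, the low-voltage activated T-type family differed in part. Cacna1g, on chromosome 11 at 94269863 to 94269922 of mm9, stood at 0.95 and 2.25 (1.31, 2.47-fold), and its second probe gave 1.22. Cacna1i stood at -2.63 and -1.23 (1.40, 2.63-fold), but its second probe gave 0.11, and it fell short of 2-fold with normexp (0.85) and as the mean of both probes (0.75). Cacna1h, the remaining T-type gene, stood at 2.62 and 2.45 (-0.17), with a second probe at -0.90. Cacna1a, of the presynaptic P/Q-type channel, differed by 0.47, and Cacna1s, of the muscle L-type channel, by 0.53 at a signal near background. Cacna1d, of a neuronal L-type channel, was detected in miR-153 cells only and was at least 1.91-fold higher. Cacna1b, Cacna1c, Cacna1e and Cacna1f were not detected.

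Promoters are shown for 3 calcium channel auxiliary genes, picked because each was higher and holds the same motif. RefSeq promoter windows, 250 bases before to 50 after a start site on GRCm38.p6, were found for 105 of the 143 genes. The letters CAGCTG, an E-box of the kind that bHLH factors read and the same on both strands, occurred in windows of 30 of those 105 genes (28.6%) and of 4944 of all 27025 genes (18.3%). Of the channel genes at least 2-fold higher, 4 of 15 with a window held it (26.7%), of the lower 1 of 5, and of those between 11 of 39 (28.2%). The share was thus about the same in higher genes as in those between. CAGATG, another E-box, occurred in windows of 21.9% of the channel genes and 19.2% of all genes, and in 1 of the 15 higher genes. The 250 bases before the start are printed for 3 of the 4, with the motif in capitals. They lie at chr14:29721865-29722114 for Cacna2d3, chr2:52558612-52558861 for Cacnb4 and chr15:78119281-78119530 for Cacng2, all on the minus strand. In Kcna5, the remaining one, the motif lies after the start site. Cacna2d2, another higher auxiliary gene, had a window but no CAGCTG in it.
Cacna2d3: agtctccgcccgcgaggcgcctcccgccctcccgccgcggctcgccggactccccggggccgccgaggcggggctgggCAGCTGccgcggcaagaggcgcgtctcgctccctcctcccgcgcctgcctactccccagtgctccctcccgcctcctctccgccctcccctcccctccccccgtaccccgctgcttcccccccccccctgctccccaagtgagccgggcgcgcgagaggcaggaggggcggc
Cacnb4: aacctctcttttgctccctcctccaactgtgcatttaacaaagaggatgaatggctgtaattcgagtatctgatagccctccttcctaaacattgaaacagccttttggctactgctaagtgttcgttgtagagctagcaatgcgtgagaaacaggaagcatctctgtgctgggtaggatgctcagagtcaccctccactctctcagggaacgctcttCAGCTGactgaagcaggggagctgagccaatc
Cacng2: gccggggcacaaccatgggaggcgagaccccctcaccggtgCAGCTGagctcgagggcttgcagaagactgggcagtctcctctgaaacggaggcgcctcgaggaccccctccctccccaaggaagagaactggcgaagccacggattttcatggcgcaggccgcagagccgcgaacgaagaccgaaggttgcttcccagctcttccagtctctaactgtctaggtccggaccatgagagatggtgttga
Both parts of the RE1 element, through which the repressor REST acts on neuronal channel genes, were searched on both strands. CAGCACC occurred in windows of 11 of 105 channel genes (10.5%, all genes 8.14%) and GGACAG in 32 (30.5%, all genes 24.7%), and GGACAG can overlap CAGCACC or CAGCTG by the letters CAG. GGGCGG, the GC box, occurred in 60 of 105 (57.1%, all genes 38.2%) and TATAAA in 9 (8.57%, all genes 15.7%). Genes with several start sites have several windows, and a missing match says only that these letters are not in the window. Counted by window, channel genes and all genes were closer for CAGCACC (7.75% and 7.14%), GGACAG (24.6% and 22.2%) and CAGATG (18.3% and 17.2%). By the same count CAGCTG occurred in 26.1% and 16.3%, GGGCGG in 44.4% and 35.7%, and TATAAA in 6.34% and 13.6%.

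Sodium channel pores differed by family member. Scn3a encodes the sodium channel typical of embryonic brain. It gave signals of 618 and 3355 intensity units and levels of 0.51 and 2.61 (2.10, 4.30-fold higher), with a second probe at 2.23. The probe lies on chromosome 2 at 65296320 to 65296379 of mm9. Scn2a, of unmyelinated axons and immature initial segments, stood at -1.74 and -0.37 (1.37, 2.58-fold). Its other probes gave 1.11 and -0.11, and the mean over all 3 of 0.79 fell short of 2-fold. Scn1a, of inhibitory neurons, differed by 0.50, and Scn8a, which takes over at mature nodes, stood at 2.51 and 2.12 (-0.39, second probe -0.42). The muscle gene Scn4a differed by -0.25 and the sensory neuron gene Scn11a by 0.08. Scn7a, Scn9a and Scn10a were not detected.

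The neighbours Scn3a, Scn2a, Scn1a, Scn9a and Scn7a lie in a row on chromosome 2, with at most 3 other protein-coding genes between one and the next in RefSeq. Their differences were 2.10, 1.37 and 0.50 for the first 3, and the last 2 were not detected.

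Sodium channel beta subunits are single-pass proteins that also act in cell adhesion. Scn2b stood at -2.35 and -0.74 (1.61, 3.05-fold higher, and barely past 2-fold with normexp). Scn3b stood at 0.85 and 0.98, a difference of 0.13, and Scn4b was at the edge of detection in miR-153 cells, at least 1.05-fold higher.

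Hyperpolarisation-activated channels carry the pacemaker current. Hcn3 was higher, with levels of -1.71 and -0.04 (1.66, 3.16-fold, or 1.16 with normexp). Hcn2 gave bright signals of 20990 and 20043 intensity units and levels of 5.59 and 5.19 (-0.40), and its second probe gave 0.06. Hcn4, of the sinus node, was not detected.

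**Figure D3:**
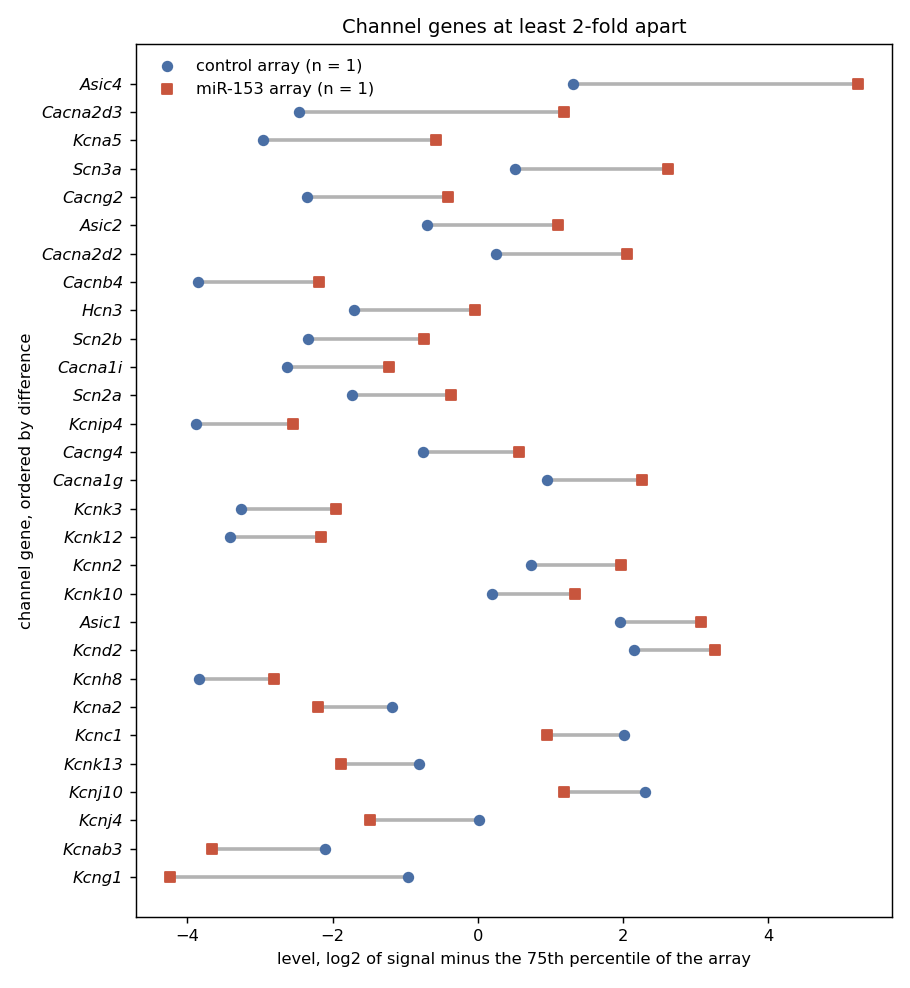
Levels on the control array (circles) and the miR-153 array (squares), 1 array each, of 29 channel genes at least 2-fold apart, ordered by difference (y axis). The x axis is log2 of the signal relative to the 75th percentile of the array. The 22 genes with the square on the right run from Kcnh8 (1.03) to Asic4 (3.93), and the 7 with the square on the left from Kcna2 (-1.02) to Kcng1 (-3.28).

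Voltage-gated potassium pores went both ways, with 2 of 16 higher, 3 lower, 11 between and a median of 0.00. The modifier subunits cannot form a channel alone and change the properties of Kcnb pores. One of them, Kcng1, had the lowest difference of all channel genes detected on both arrays. Its signal was 224 intensity units in the control and 29.1 in miR-153 cells, its levels were -0.96 and -4.24 (-3.28, 9.73-fold lower), and normexp put it at -1.86. The probe lies on chromosome 2 at 168087201 to 168087260 of mm9. A second probe of Kcng1 was not detected on either array, with signals of 4.43 and 3.93. Another modifier gene, Kcnv1, was detected in miR-153 cells only and was at least 1.63-fold higher, and Kcnf1 likewise, at least 1.18-fold. Kcns3 differed by 0.63, and Kcng2, Kcng3, Kcng4, Kcns1, Kcns2 and Kcnv2 were not detected.

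The A-type channels open briefly and delay firing. Kcnd2, their main dendritic pore gene, stood at 2.15 and 3.26 (1.10, 2.15-fold higher). Kcnd3 gave bright signals of 9198 and 9112 intensity units and stood at 4.40 and 4.05 (-0.35, second probe -0.71). Kcna4, the A-type gene of axons, stood at 2.70 and 2.12 (-0.58), and Kcnd1 differed by 0.02. The fast delayed rectifier gene Kcnc1, of fast-spiking neurons, was lower, at 2.01 and 0.95 (-1.06, 2.08-fold). Its other probes gave -1.61 and -0.77, and under spike-in scaling its difference was -0.81. Kcnc4 (0.07) differed by less than the spread between probes. Kcnb2, detected in miR-153 cells only, was at least 1.78-fold higher there, and Kcnc2 had no bound above 1.

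Kcna genes encode low-threshold channels of axons and, for Kcna5, of heart. Kcna5, Kcna1 and Kcna6 lie in a row on chromosome 6 and gave 2.38, -0.23 and 0.99. The brightest probe of Kcna5 stood at -2.96 and -0.58 (5.22-fold higher, or 1.35 with normexp), but its second probe stood at -2.20 and -2.50 (-0.29). Kcna6 stood at 2.11 and 3.09, just inside 2-fold, and its second measured probe gave -0.29. Kcna2 and Kcna3, neighbours on chromosome 3, gave -1.02 and 0.05. Kcna2, of the axon beside the node of Ranvier, was 2.02-fold lower, at -1.18 and -2.20, and fell short of 2-fold with normexp (-0.82), quantile normalization (-0.95) and spike-in scaling (-0.77). Kcna7 differed by -0.16 (second probe 0.38) and Kcna10 was not detected.

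The M-current channels, which damp repetitive firing, are made of KCNQ subunits. Kcnq5 was detected in the control only and was at least 2.62-fold higher there. Among EAG-type genes, 1 of 5 was higher and 0 lower. Kcnh8 stood at -3.84 and -2.81 (1.03, or 0.33 with normexp), near background. Kcnh2, the hERG channel gene, differed by -0.04, Kcnh3 by 0.23, Kcnh4 by 0.35 and Kcnh5 by 0.36, and the other 3 were not detected.

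Cytoplasmic and membrane partners of potassium pores mostly lay a little above 0. Of 8 detected on both arrays, 7 did, 1 was higher and 1 lower, and 7 of the 17 genes were not detected, among them Kcne1, Kcne2, Kcne3, Kcne4 and Kcnab2. The KChIP proteins bind Kcnd pores and sense calcium. Kcnip2 was detected in miR-153 cells only, at a signal of 201 intensity units against 17.6, and was at least 7.41-fold higher. Kcnip4 stood at -3.88 and -2.54 (1.34, or 0.38 with normexp), Kcnip1 differed by 0.54 over 10 repeat spots with an SD of 0.31, and Kcnip3 by 0.18. A second, dim probe of Kcnip3 was detected in the control only, at 44.6 intensity units against 21.3 in miR-153 cells. Dpp6 and Dpp10, the other partners of Kcnd pores, were also higher, by 1.69 and 1.48. Kcnab3, a beta subunit of Kcna pores, stood at -2.11 and -3.66 (-1.55, 2.93-fold lower, or -0.91 with normexp), and Kcnab1 differed by 0.51. Kcnmb4, the neuronal partner of the large-conductance channel, stood at 3.50 and 3.92 (0.42, second probe 0.51). Kcne1l differed by 0.34 (second probe -0.25) and Kcnrg by 0.10, while Kcnmb2 was at least 1.47-fold higher in miR-153 cells, where alone it was detected.

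Calcium-activated potassium channels link calcium entry to hyperpolarisation. Kcnn2, of a small-conductance channel that shapes the afterhyperpolarisation of neurons, stood at 0.74 and 1.97 (1.23, 2.35-fold higher). It was measured over 10 repeat spots, with an SD of 0.077 for the difference. Kcnn3 stood at -0.58 and -1.05 (-0.47, second probe -0.68). Kcnn4, of the intermediate-conductance channel found in dividing and blood cells, was detected in the control only and was at least 2.28-fold higher there. Kcnma1, the large-conductance pore, differed by -0.33, with other probes at -0.37 and -1.54. The sodium-activated Kcnt1 differed by 0.09, and Kcnu1, known from sperm, was at least 1.29-fold higher in miR-153 cells, where alone it was detected. Kcnn1 and Kcnt2 were not detected.

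Inward rectifiers hold the resting potential near the potassium equilibrium, and none of the 5 detected on both arrays was 2-fold higher. Kcnj10, the main potassium channel of astrocytes and oligodendrocytes, gave signals of 2135 and 1248 intensity units and levels of 2.29 and 1.18 (-1.11, 2.16-fold lower). Under spike-in scaling its difference was -0.87. Of 9 astrocyte markers, 8 were detected on both arrays, all but Gjb6, and 1 of these was higher and 0 lower. Their median difference was 0.43. The list's summed signal, which is not scaled, was 44749 intensity units in the control and 62215 in miR-153 cells. Kcnj16, whose product joins that of Kcnj10 in heteromers, differed by -0.29. Kcnj4, of a strong rectifier in forebrain neurons, stood at 0.01 and -1.48 (-1.50, 2.82-fold lower). Kcnj3, a G protein-gated subunit, differed by 0.49 (second probe 0.06) and Kcnj12, of a strong rectifier of muscle, by 0.46.

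Other inward rectifier genes were detected on a single array. Kcnj13, a gene of the choroid plexus and retinal pigment epithelium, gave 70.5 intensity units in the control and 10.6 in miR-153 cells, and was at least 4.97-fold lower in miR-153 cells. In the choroid plexus and ependyma list 5 of 8 markers were detected on both arrays, and 3 of these were higher and 0 lower. Ttr was detected in miR-153 cells only and Kl in neither. Kcnj14 was at least 1.56-fold lower in miR-153 cells. Kcnj9, a further G protein-gated subunit, was at least 2.50-fold higher in miR-153 cells, and Kcnj11, the pore of the ATP-sensitive channel, at least 2.01-fold. Abcc8, the receptor subunit that pairs with Kcnj11, differed by -0.22. Kcnj9 lies beside Kcnj10 on chromosome 1, so these neighbours went in opposite directions. Kcnj1, Kcnj2, Kcnj5, Kcnj6, Kcnj8 and Kcnj15 were not detected.

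The K2P channels, with a pair of pore domains per subunit, carry the background potassium current, and 3 of the 8 detected on both arrays were higher and 1 lower. The mechanosensitive, lipid-activated members were higher in part. Kcnk2 was detected in miR-153 cells only, with 172 intensity units against 13.4, and was at least 6.33-fold higher. Kcnk10 stood at 0.20 and 1.33 (1.14, 2.20-fold higher), while Kcnk4, the remaining such gene, stood at 0.16 and -0.24 (-0.41). Of the TASK group, named for its acid sensitivity, Kcnk3 stood at -3.26 and -1.96 (1.30, or 0.62 with normexp), Kcnk15 differed by 0.75, and Kcnk5 was detected in the control only and was at least 2.80-fold higher there. Kcnk12 stood at -3.41 and -2.16 (1.25, or 0.40 with normexp), and its close relative Kcnk13, known from microglia, at -0.81 and -1.89 (-1.08, or -0.85 with normexp and -0.84 under spike-in scaling). Kcnk1 (-0.73) and Kcnk16 (-0.60) were the members nearest to 2-fold on the lower side, and Kcnk6, Kcnk7, Kcnk9 and Kcnk18 were not detected.

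Different probes of a channel gene did not always give the same answer. Among 22 channel genes with several probes detected on both arrays, all probes had the same sign in 15, and the SD between probes was 0.65. Of the 8 that passed 2-fold on the brightest probe, 5 had the same sign on all probes and 3 (Asic4, Cacna1g and Scn3a) passed 2-fold on every probe. The first 30 bases of 60 are shown for both detected probes of Asic4 and Kcna5, the brightest of each gene first. The Asic4 probes start 8 bases apart on chromosome 1 and share most of their letters, so their agreement is that of nearly one probe. They start at 75470848 and 75470856 of mm9.
Asic4 A_55_P2162747: aggccttgctccctagagattggttttata
Asic4 A_55_P2185198: ctccctagagattggttttataaagtgctg
The Kcna5 probes, at chr6:126482603-126482632 and chr6:126483403-126483432 on the minus strand for the bases shown, lie 800 bases apart and differed by 2.68 in their log2 difference.
Kcna5 A_52_P58283: ggcttttgagaattcattcttttcattttg
Kcna5 A_55_P2106891: gacctgcgaaggtctctgtatgccctctgt
Which exon or untranslated region each probe lies in was not analysed here.

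**Figure D4:**
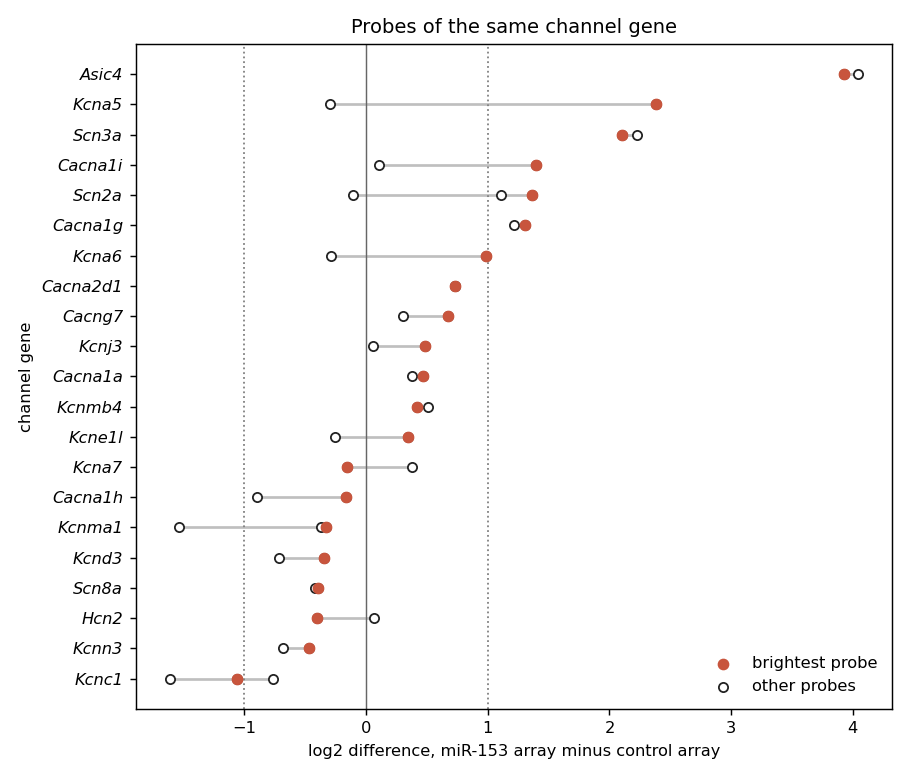
Log2 difference (miR-153 minus control, x axis) of every probe detected on both arrays, for 21 channel genes with several such probes (y axis). Filled points are the brightest probe of a gene, open points the others, and dotted lines mark 2-fold. The probes of Kcna5 lie on both sides of 0, at 2.38 and -0.29, while those of Scn3a lie at 2.10 and 2.23.

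Proteins that anchor or modulate these channels, and other ion channels, were taken from a list of 69 genes. Of the 54 detected in both, 16 were higher and 6 lower, with a median of 0.34. Over all genes 9.22% were higher and 11.1% lower, so the share of lower partners was that of the background and the lower ones named below are given as values. Among the anchors of the axon initial segment and node, Cntnap2, which gathers Kcna channels beside the node, was 14.4-fold higher (3.85), and Nfasc was 3.14-fold higher (1.65). Ank3, the master anchor of the initial segment, differed by 0.99 and Ank2 by -0.90. The sodium leak channel group had 3 of 4 higher, with the pore gene Nalcn at 1.74, Fam155a at 1.77 and Unc79 at 1.28. The intracellular fibroblast growth factors that bind sodium channels included Fgf14 (1.43) and Fgf13 (1.03) among the higher genes.

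Partners of Kcna channels went both ways. Adam22 (1.30), Dlg2 (1.07) and Lgi3 (1.02) were higher, and Lgi1 (-1.31) and Lgi2 (-1.58) lower. Of the small GTPases that bind beta subunits and inhibit calcium channels, Gem was 4.46-fold lower (-2.16), Rrad was detected in the control only and was at least 2.75-fold higher there, and Rem2 was higher (1.38). Store-operated calcium entry genes had Orai2 higher (1.12) and Stim2 lower (-1.06). The chloride channel gene Ano1 was higher (1.78), and Clcn5 (-1.53) and Ano6 (-1.64) were lower. All 3 epithelial sodium channel genes were undetected. Rest, the repressor named above, differed by -0.62 and its corepressor genes Rcor1 by -0.75, Rcor2 by -0.40 and Rcor3 by 0.31.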

How the data were processed

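Per the file headers, the deposited values are scanner intensity values of 1-colour Agilent arrays, and the submitters' processing notes name Agilent Feature Extraction 10.7.3.1. The deposited series table holds intensity values that equal the processed signal divided by 381 (control) and 485 (miR-153), with medians of 0.0826 and 0.0765 over non-control spots. It is linear, not centred and not inverted, and was used as an alternative.

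Of 62976 spots, 59305 were not controls. Outlier flags removed 229 of these, and repeat spots were averaged. Accessions were matched to RefSeq names (GRCm38) for 47.2% of all probes and for 193 of the 205 channel probes, which updated 6 names. Probe positions are those of the scanner files, on mm9, and were never set against GRCm38.p6. A gene detected on a single array got a lower bound. It sets its level against the higher of its own level on the other array and the lowest level of any detected probe there, -4.34 (control) or -4.94 (miR-153). A dim gene can therefore lack a bound above 1. That lowest level is not a strict detection limit. A probe of Cacnb2, for example, was undetected on both arrays at -4.01 (control) and -4.55 (miR-153).

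Named genes were those past 2-fold, those with a bound of at least 2-fold, the 3 brightest of each class and the 5 nearest to 2-fold in each direction, 71 in all. Some further members were named after their values were seen, and some are counted but not reported by name here. The members and lists were chosen with earlier results of these data known. The steps were tested on simulated data, and every column of the deposited table was used. Normexp used limma 3.58.1 in R 4.3.3 with an offset of 50.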

Additional observations from a re-analysis of the deposited data

How the results depend on the processing

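Each result was recomputed under 8 alternatives, normexp, quantile normalization, spike-in scaling, the series table, no filter on dim probes, bright probes only, the mean of the probes and outlier spots kept. Of the 23 higher and 7 lower channel genes, all kept their sign under the 7 alternatives that keep every gene, and 15 and 2 stayed past 2-fold. Several of these alternatives could not reverse a sign. No filter and outlier spots kept left these values unchanged, and the series table and spike-in scaling shift every gene by a constant (0.24 for spike-in scaling). The mean of the probes changes only genes with several probes. Higher channel genes numbered 38 with no filter and 8 with bright probes only, because those settings count 143 and 25 genes. Lower ones numbered 4 with normexp, 3 with spike-in scaling, 16 with no filter and 2 with bright probes only. Over all genes normexp gave 1196 higher and 1526 lower, against 1885 and 2259, and spike-in scaling 2839 and 1533. The normexp offset draws dim genes towards 0.

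Class medians rest on few genes. With no filter, that of acid-sensing genes was 1.11. With bright probes only, several class medians were the value of 1 gene. These were 1.23 for calcium- and sodium-activated (Kcnn2), -1.11 for inward rectifier (Kcnj10) and 1.14 for K2P genes (Kcnk10). In the main setting those medians were -0.12, -0.29 and 0.17. The same held for sodium beta at 0.13 (Scn3b, main setting 0.87) and HCN at -0.40 (Hcn2, main setting 0.63). Medians were 0.86 for sodium pore, 1.27 for alpha2delta and 2.52 for acid-sensing genes, against 0.08, 1.80 and 1.80. No paired analysis was possible because each group has 1 array. Signal over background limits the dim genes, and 1 array per group limits the precision.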
